A study of Mus musculus with 22 samples.

Results

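The cytochrome P450 genes of families 1 to 4 were followed in mouse liver tumours that express an inhibitor of NF-kB, in tumours without it and in wild-type liver. Members were all genes whose symbol in the platform annotation begins with Cyp1, Cyp2, Cyp3 or Cyp4 and goes on with a letter. Cyp1a2, Cyp2e1, Cyp4a10 and Cyp4a14 were left out by that rule. It gave 45 genes on 50 spots, of 16896 named genes on the array: 2 of family 1, 28 of family 2, 6 of family 3 and 9 of family 4, in 17 subfamilies.

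Tumours were taken from 6 mice of the IkB-SR group, which lack Mdr2 (Mdr2-/-) and carry a pair of transgenes. One is the IkB super-repressor behind a tetracycline-regulated promoter, and the other the tetracycline transactivator driven by a C/EBP promoter specific to hepatocytes. The series design describes the tumours as coming from individual mice. Tumours of the Mdr2-KO group came from 4 mice that are Mdr2-/- and whose labels name no transgene, so loss of Mdr2 is shared by all 10 tumours. Mdr2-/- mice develop cholestatic hepatitis, dysplasia and then hepatocellular carcinoma. The reference tissue was 1 liver sample of wild type on the same background, which the labels call mixed. Sex is given as unknown, and no age is stated. Each RNA was hybridised with dyes swapped on 2 arrays against a universal mouse reference RNA pooled from many tissues, liver among them.

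Every value below is a log2 ratio of sample over that reference RNA, averaged over the dye-swapped arrays, and differences between groups are differences of such log2 ratios. A ratio depends on how much of the transcript the reference holds, so levels of different genes were not compared. With bulk RNA, fewer cells of a type and less RNA per cell cannot be told apart.

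P450 enzymes are haem proteins of the endoplasmic reticulum that oxidise drugs, steroids, bile acids and fatty acids, with electrons delivered by P450 reductase (Por). Family 1 answers to the aryl hydrocarbon receptor, many members of subfamilies 2b, 2c and 3a to the xenobiotic receptors CAR and PXR, and subfamily 4a to PPAR-alpha. In mouse liver several are also sex-biased, under the control of the pulsed or steady pattern of growth hormone. Hepatocytes near the central vein make most of them, and inflammatory cytokines are known to lower many of their transcripts.

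Promoter windows are shown for 3 members on which the results turn: Cyp4b1, which had the smallest p between the tumour groups, Cyp3a41, which stood above the wild-type liver in every tumour, and Cyp3a11, its neighbour in the same subfamily, which did not. Each runs from 250 bases before to 50 bases after the annotated start and is read 5′ to 3′ on the gene's strand, from RefSeq with build GRCm38.p6. Capitals mark matches to 3 letter patterns searched on both strands: GGG and CC with any 5 bases between them, a form like the NF-kB site, TTCNNNGAA, a form like the STAT site, and TATAAA. The windows are chr4:115647672-115647971 for Cyp4b1, chr5:145720087-145720386 for Cyp3a41 (Cyp3a41a in RefSeq) and chr5:145879805-145880104 for Cyp3a11, all on the minus strand.
Cyp4b1: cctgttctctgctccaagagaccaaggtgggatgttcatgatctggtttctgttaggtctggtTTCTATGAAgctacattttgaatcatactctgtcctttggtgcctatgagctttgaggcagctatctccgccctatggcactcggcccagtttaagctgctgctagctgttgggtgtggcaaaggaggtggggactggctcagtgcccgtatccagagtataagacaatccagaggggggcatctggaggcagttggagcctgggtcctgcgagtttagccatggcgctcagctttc
Cyp3a41: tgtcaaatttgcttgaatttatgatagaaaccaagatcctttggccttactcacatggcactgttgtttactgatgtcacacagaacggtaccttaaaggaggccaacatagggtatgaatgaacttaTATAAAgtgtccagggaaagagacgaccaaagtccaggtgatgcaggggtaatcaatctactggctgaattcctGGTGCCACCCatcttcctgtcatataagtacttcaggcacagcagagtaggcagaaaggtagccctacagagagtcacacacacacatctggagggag
Cyp3a11: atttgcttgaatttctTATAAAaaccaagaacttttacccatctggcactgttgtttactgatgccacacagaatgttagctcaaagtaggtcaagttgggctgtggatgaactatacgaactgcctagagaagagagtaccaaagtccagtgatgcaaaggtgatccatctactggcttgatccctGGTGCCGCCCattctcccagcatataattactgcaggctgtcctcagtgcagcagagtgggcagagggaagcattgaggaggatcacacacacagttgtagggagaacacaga
In these windows Cyp4b1 held 1 match to TTCNNNGAA, and Cyp3a41 and Cyp3a11 each held 1 to the NF-kB-like pattern, on the opposite strand, and 1 to TATAAA. Counting the window listed first for each gene, 20 of 39 member windows held the NF-kB-like pattern (51.3%), beside 50.4% of 27025 genes. TTCNNNGAA was in 3 member windows (7.69%, beside 8.47%) and TATAAA in 16 (41.0%, beside 14.2%). The windows of Cyp3a16, Cyp3a41 and Cyp3a44 were 92.1% to 93.4% identical in pairs, while Cyp3a41 and Cyp3a11 were 70.6% identical. Letter matches are descriptions of these windows only.

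Of the 45 members, 38 had values in enough tumours to be tested between the tumour groups, and 35 of these also had a value in the wild-type liver. Cyp2b19, Cyp2j11 and Cyp4x1 gave no value on any array. Cyp2c66, Cyp2d22, Cyp2j13 and Cyp2r1 gave values on some arrays and were not tested. Cyp2c39, Cyp3a44 and Cyp4f18 lacked a liver value on both arrays (Cyp4f18 had one on the Cy3 array alone). Of the 38, 33 were above 0 in every sample with a value, that is, higher than in the reference pool on the averaged arrays. The exceptions were Cyp1b1, Cyp2s1, Cyp2c55, Cyp4f16 and Cyp4f18. Among the 33, some averages of Cyp1a1, Cyp2j6 and Cyp3a25 joined a Cy3 value below 0 with a Cy5 value above 0. In Mdr2-KO 7 Cyp1a1 had -0.48 and 0.65 and Cyp3a25 -0.18 and 1.17, and in Mdr2-KO 5 Cyp2j6 had -0.21 and 0.65. Cyp1b1 and Cyp2s1, known mainly from tissues other than liver, were below 0 in all samples, at -4.35 to -3.04 and at -3.20 to -1.85 over the tumours. Probe sequences were not used here, so close relatives such as the members of subfamilies 2c, 2d and 3a may share signal on a spot.

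**Figure D1:**
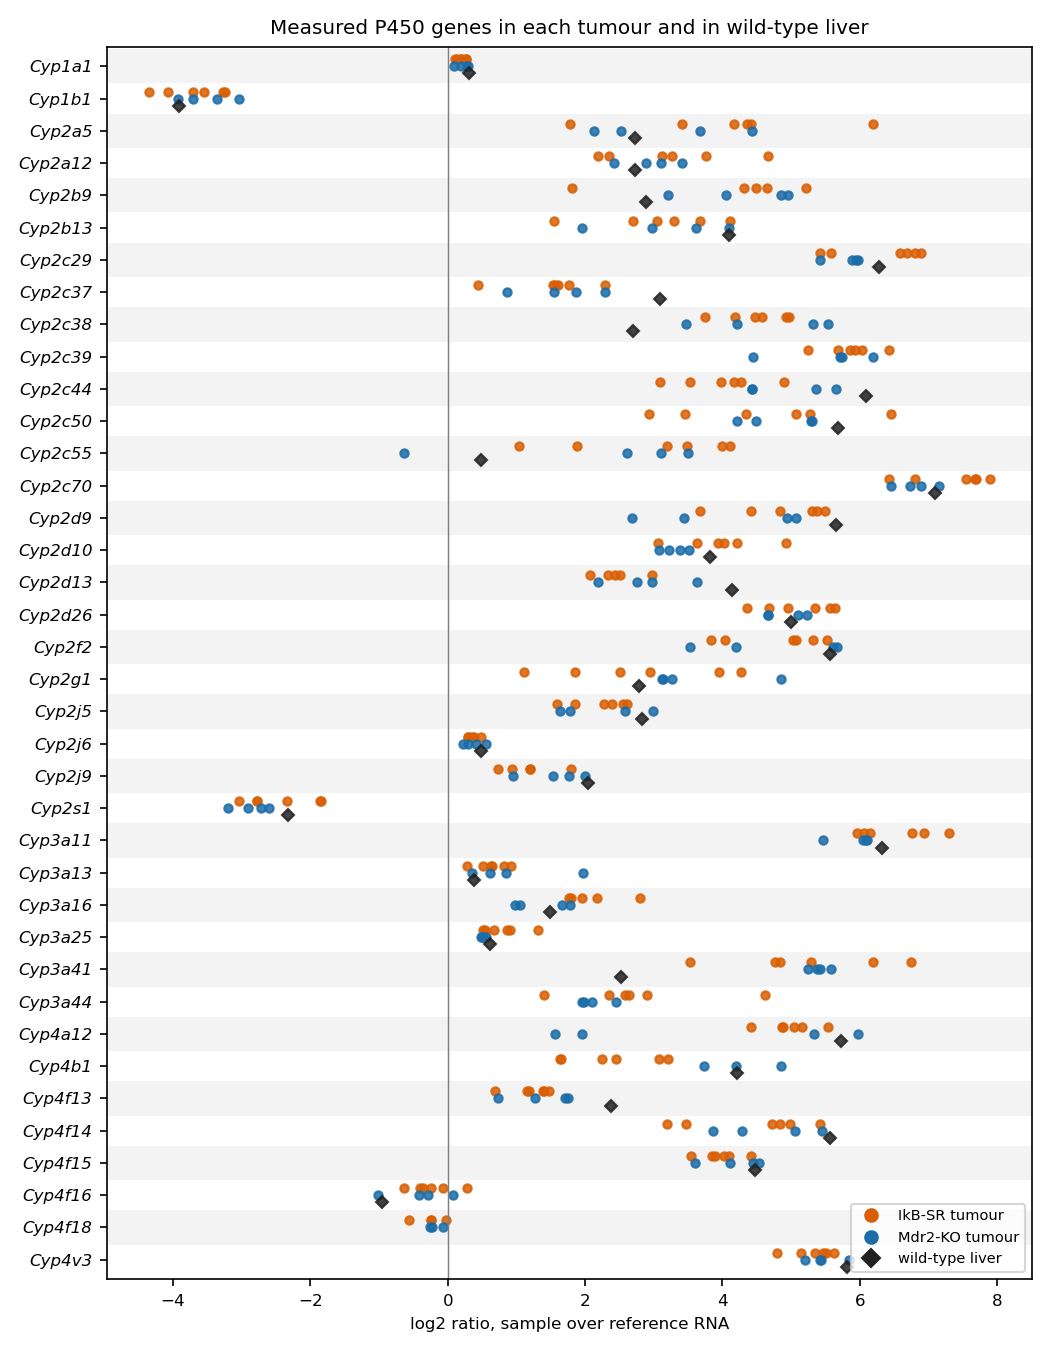
Log2 ratio over the reference RNA (horizontal axis) of the 38 tested P450 genes, 1 point per tumour (orange IkB-SR, blue Mdr2-KO) and a black diamond for the single wild-type liver. Cyp4b1 is the 1 gene whose tumour groups do not overlap, and Cyp3a41 and Cyp2c38 lie right of the liver in all 10 tumours.

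The samples differed in ways beyond the groups. Nfkbia, the parent gene of the super-repressor, was 1.69 to 3.11 in 5 IkB-SR tumours and 0.0027 in the sample labelled IkB-SR 8, against 0.04 to 0.30 in Mdr2-KO tumours and 0.09 in the wild-type liver, so that sample goes against its label. The Y-linked gene Eif2s3y was high in IkB-SR 6, 9 and the sample labelled IkB-SR 8 (1.63 to 2.46) and in the liver (2.33). It was low in the other IkB-SR tumours (-3.54 to -2.98) and in all Mdr2-KO tumours (-4.01 to -3.67). The spread of the dye difference over spots also split the samples. It was small (SD 0.215 to 0.305) in IkB-SR 3, 4, 9 and 10 and Mdr2-KO 1 and 2, and large (SD 0.662 to 0.758) in IkB-SR 6, the sample labelled IkB-SR 8, Mdr2-KO 5 and 7 and the wild-type liver. Over the members the median absolute difference between the swapped arrays was 0.230 in the set with the small dye difference (the small dye set) and 0.635 in the other (the large dye set). The hepatocyte marker list averaged 4.88 to 5.84 in IkB-SR tumours, 4.68 to 5.14 in Mdr2-KO tumours and 5.14 in the liver (18 of 18 genes), so all samples carried the liver label's markers. Between IkB-SR and Mdr2-KO tumours 14 of 18 hepatocyte markers were above 0 (beside 43.2% of all features), with a median difference of 0.68. Of the 18, 12 were higher at an unadjusted p under 0.05 (beside 3.04% of all features) and 0 at an adjusted one (limma). Endothelial markers averaged 0.72 to 1.55 in IkB-SR tumours, against 1.73 to 2.93 in Mdr2-KO tumours (10 of 12 genes). Macrophage markers averaged 1.71 to 2.21, against 2.30 to 3.19 (10 of 12 genes). The part of these differences in the results below was not tested, except where a value is given.

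Between IkB-SR and Mdr2-KO tumours the question was whether blocking NF-kB in hepatocytes went with other P450 levels. Cyp4b1, a fatty acid and xenobiotic hydroxylase best known from lung, was 3.69-fold lower in IkB-SR tumours, the largest difference among the members, but it missed the threshold over all features. No member passed: 0 of 38 had an adjusted p under 0.05 (limma), beside 5 of 18188 features (0.0275%). At an unadjusted p under 0.05 there were 4 of 38 members (10.5%), beside 12.4% of all features. Of these, Cyp3a16 and Cyp2d10 were higher (5.26%, beside 3.04% of features) and Cyp4b1 and Cyp2c44 lower (5.26%, beside 9.37%). A difference of at least 2-fold was seen for 2 of 38 (5.26%), Cyp4a12 higher and Cyp4b1 lower (2.63% each), beside 1.28% of features (0.247% higher and 1.03% lower). Of the 38, 17 were above 0 (44.7%, beside 43.2%), and the median difference was -0.02, as it was over all features.

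Cyp4b1 had 1.63 as its lowest, 2.35 as its median and 3.21 as its highest value in the 6 IkB-SR tumours. It had 4.85, 4.20 and 3.73 in Mdr2-KO tumours 1, 5 and 7 and 4.22 in the wild-type liver. Every IkB-SR tumour thus lay below every Mdr2-KO tumour with a value. Mdr2-KO tumour 2 had a value on the Cy5 array alone (3.47), which entered no fit, and on the Cy5 arrays the highest IkB-SR value was 3.30. The difference was -1.89 (SE 0.41, 95% interval -2.81 to -0.96, unadjusted p = 0.00131, adjusted p = 0.115 in limma). An exact permutation over the 6 and 3 tumours gave a two-sided p of 0.0238, the smallest it can give. It was the 1 member whose groups did not overlap downwards (2.63%, beside 2.57% of features), and 0 members lay wholly higher (beside 1.05%). Among samples with a large dye difference it was -1.54, and among those with a small one -2.50, where Mdr2-KO 1 was the 1 Mdr2-KO tumour with a value. It was -1.64 with Eif2s3y as a covariate and -1.74 without the sample labelled IkB-SR 8. The endothelial and macrophage lists given above were also lower in every IkB-SR tumour than in any Mdr2-KO tumour, and their part in the Cyp4b1 difference was not tested.

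Cyp2c44 (current symbol Cyp2c23), an epoxygenase of arachidonic acid, had a lowest, median and highest value of 3.09, 4.08 and 4.90 in IkB-SR tumours. It had 5.66, 4.43, 4.43 and 5.36 in Mdr2-KO tumours. The groups overlapped, through the sample labelled IkB-SR 8 at 4.90. The difference was -0.98 (SE 0.37, 95% interval -1.80 to -0.15, adjusted p = 0.322 in limma), and -1.16 without that sample.

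Cyp3a16, a 3a enzyme known as fetal and female-biased in mouse liver, had 2.18, 1.96, 1.77, 2.80 and 1.79 in the samples labelled IkB-SR 3, 4, 8, 9 and 10 and no value in IkB-SR 6. It had 1.06, 1.66, 1.79 and 0.98 in Mdr2-KO tumours. The highest Mdr2-KO value lay between the lowest IkB-SR values, and the difference was 0.73 (SE 0.26, adjusted p = 0.295 in limma). It was 0.82 among samples with a small dye difference and 0.39 among those with a large one. Cyp2d10, a 2d enzyme, had 3.06, 3.98 and 4.92 as its lowest, median and highest IkB-SR values, against 3.22, 3.38, 3.52 and 3.08 in Mdr2-KO tumours. Its IkB-SR values reached higher and began lower, with a difference of 0.67 (SE 0.29, adjusted p = 0.397 in limma). That difference was 0.98 among samples with a small dye difference and 0.047 among those with a large one.

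Cyp3a11, the main PXR-induced 3a enzyme of mouse liver, ranged from 5.97 to 7.30 with a median of 6.45 in IkB-SR tumours, against 6.11, 6.04, 6.10 and 5.46 in Mdr2-KO tumours. Cyp3a25, another liver 3a enzyme, ranged from 0.52 to 1.31 with a median of 0.77, against 0.56, 0.48, 0.52 and 0.49. Both differed by amounts that missed the threshold, at 0.60 for Cyp3a11 (SE 0.28, adjusted p = 0.421 in limma) and 0.29 for Cyp3a25 (SE 0.14, adjusted p = 0.464 in limma). For Cyp3a11 it was 0.69 in the small and 0.28 in the large dye set, and 0.24 after quantile normalization. For Cyp3a25 it was 0.42 in the small and 0.024 in the large dye set, and 0.19 without IkB-SR 9. The hepatocyte markers given above were also higher on balance in IkB-SR tumours, and their part in the values of Cyp3a11, Cyp3a25 and Cyp2d10 was not tested. In both genes 4 IkB-SR tumours lay above all Mdr2-KO tumours, and the other IkB-SR values lay among those of Mdr2-KO tumours. Single-gene exact permutation p-values (two-sided, computed for all 38 members and not adjusted) were 0.0317 for Cyp3a16, 0.0476 for Cyp3a25, 0.0571 for Cyp2c44, 0.0667 for Cyp2d10 and 0.124 for Cyp3a11.

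**Figure D2:**
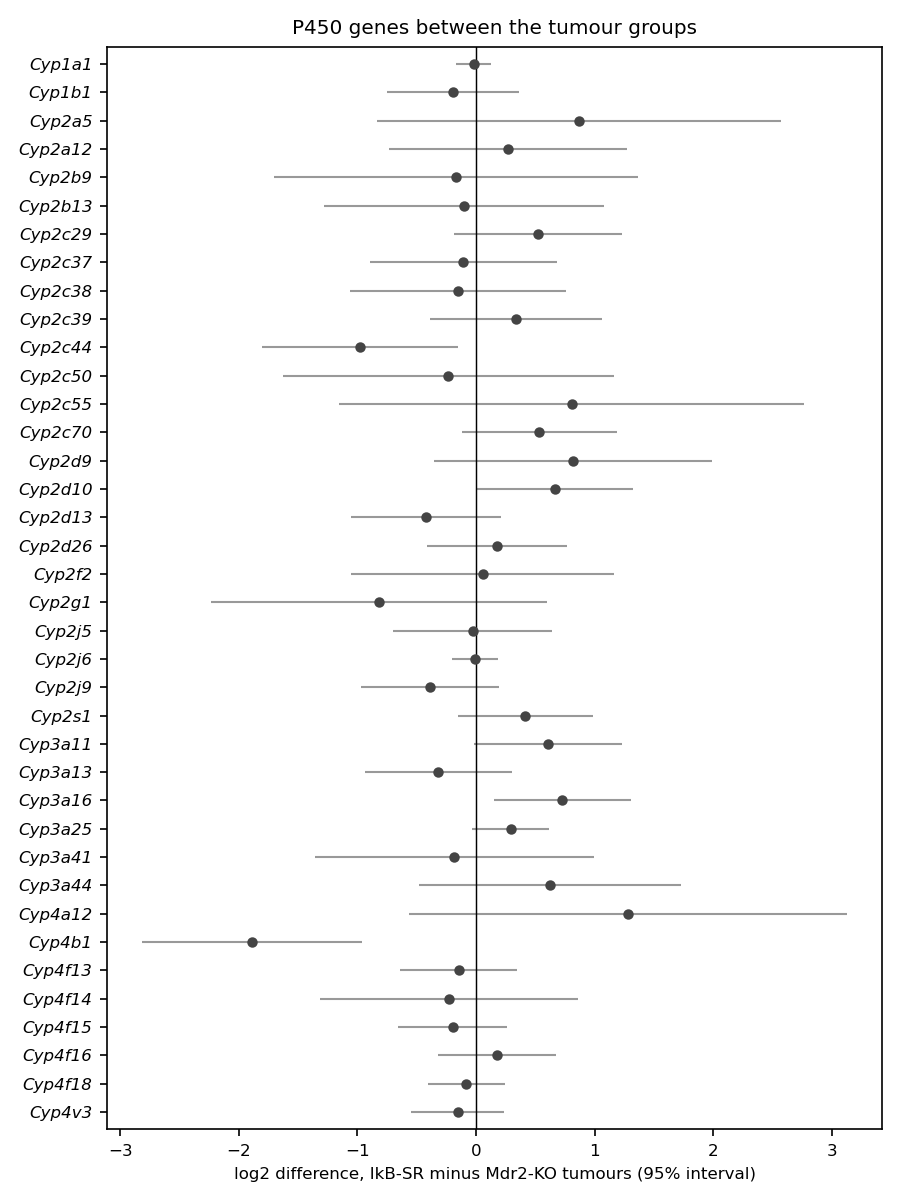
Log2 difference, IkB-SR minus Mdr2-KO tumours, of the 38 tested P450 genes (points) with 95% intervals (lines) from the limma fit. The interval lies wholly below 0 for Cyp4b1 and Cyp2c44 and wholly above 0 for Cyp3a16 and Cyp2d10, before adjustment over all features.

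Cyp4a12, a male-biased fatty acid omega-hydroxylase whose symbol stands for what RefSeq now splits into Cyp4a12a and Cyp4a12b, had the widest spread of the members. In IkB-SR tumours its lowest, median and highest values were 4.41, 4.96 and 5.54. In Mdr2-KO tumours it had 5.98 and 5.33 in tumours 1 and 2 but 1.57 and 1.95 in tumours 5 and 7, while the wild-type liver had 5.73. Both of its spots showed the same split, at 0.63 and 1.18 in Mdr2-KO tumours 5 and 7 on the first, where no other sample was below 3.40, and at 2.50 and 2.72 on the second, where none was below 5.29. The group difference of 1.28 (SE 0.83, adjusted p = 0.626 in limma) therefore averages unlike tumours. It was -0.73 among samples with a small dye difference and 3.34 among those with a large one (adjusted p = 0.0409 in limma), and 0.57 or 0.69 when Mdr2-KO 5 or 7 was left out. The 3.34 compares only IkB-SR 6 and the sample labelled IkB-SR 8 with Mdr2-KO 5 and 7, the pair already seen to be low. IkB-SR 6, the sample labelled IkB-SR 8 and the liver belong to the set with a large dye difference too, at 5.17, 5.04 and 5.73.

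Cyp2d9, the other male-biased member, a steroid 16-alpha-hydroxylase, was lowest in the same pair of tumours. It had 3.67, 5.07 and 5.50 as its lowest, median and highest IkB-SR values, and 5.07, 4.94, 2.69 and 3.45 in Mdr2-KO tumours 1, 2, 5 and 7. The difference was 0.82 (SE 0.53, adjusted p = 0.623 in limma). Eif2s3y was low in all 4 Mdr2-KO tumours (-4.01 to -3.67), and its level did not separate tumours 5 and 7 from tumours 1 and 2. In IkB-SR 3, 4 and 10, where Eif2s3y was low, Cyp4a12 had 5.54, 4.87 and 4.88 and Cyp2d9 5.50, 3.67 and 4.84. Where it was high, in the samples labelled IkB-SR 6, 8 and 9, Cyp4a12 had 5.17, 5.04 and 4.41 and Cyp2d9 4.42, 5.37 and 5.30. What set Mdr2-KO 5 and 7 apart was not tested.

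Cyp3a41 had 3.53, 5.06 and 6.74 as its lowest, median and highest values in IkB-SR tumours, 5.24, 5.59, 5.38 and 5.43 in Mdr2-KO tumours and 2.52 in the wild-type liver. The 3 IkB-SR tumours with high Eif2s3y had 3.53, 5.29 and 6.19, which spans nearly the whole range of the group. Cyp3a44 ranged from 1.40 to 4.63 with a median of 2.61 in IkB-SR tumours, against 2.10, 1.96, 2.45 and 1.98 in Mdr2-KO tumours, and its highest value was that of IkB-SR 9, where Eif2s3y was high. Cyp2b9, a female-biased 2b enzyme, had 4.50, 4.64, 1.82, 4.32 and 5.22 in the samples labelled IkB-SR 3, 4, 8, 9 and 10. It had 3.21, 4.06, 4.96 and 4.86 in Mdr2-KO tumours and 2.89 in the liver. Cyp2b13, its close relative, ranged from 1.54 to 4.11 with a median of 3.17 in IkB-SR tumours and had 3.62, 2.97, 4.10 and 1.95 in Mdr2-KO tumours, against 4.09 in the liver. Its second spot had values on only 9 arrays and lowers the averages of IkB-SR 9 and Mdr2-KO 7, which were 4.86 and 3.11 on the first spot. No female-biased member passed in any comparison: 0 of 5 between the tumour groups and 0 of 4 against the liver.

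**Figure D3:**
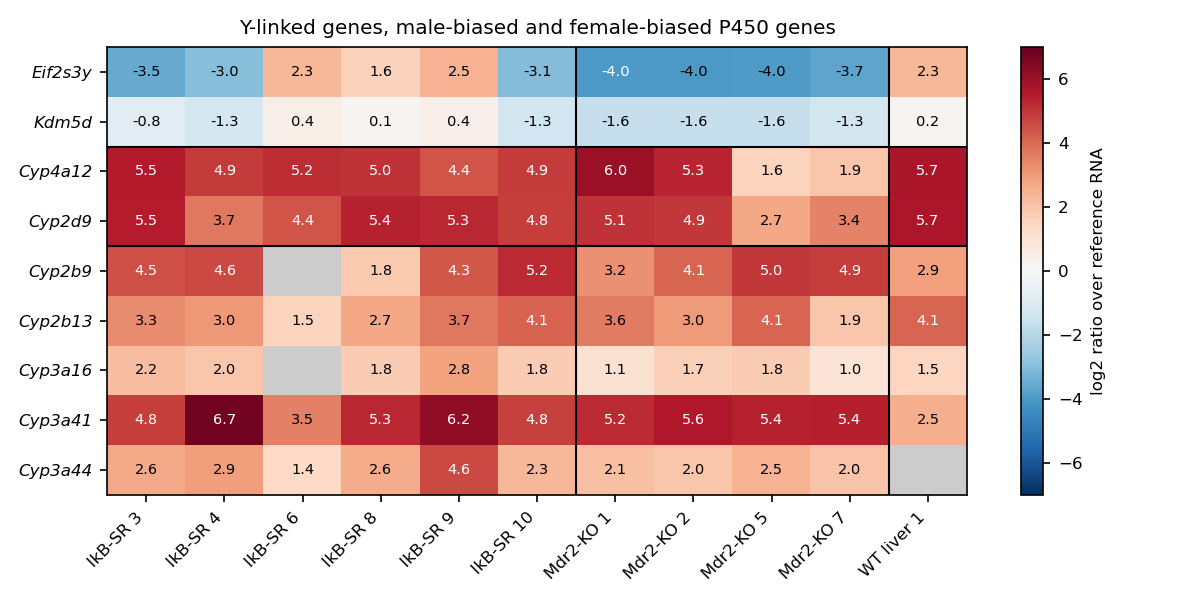
Log2 ratio over the reference RNA (colour and number) of the Y-linked genes Eif2s3y and Kdm5d, the male-biased P450 genes Cyp4a12 and Cyp2d9 and 5 female-biased P450 genes, in each tumour and the wild-type liver; grey marks no value. Cyp4a12 and Cyp2d9 are lowest in Mdr2-KO 5 and 7, and Cyp3a41 is lowest in the liver.

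Against the wild-type liver the question was how the P450 genes of each kind of tumour stand to normal liver. Cyp3a41 and Cyp2c38 were above the liver in every tumour, while Cyp2c44, Cyp2c37, Cyp2d13, Cyp2d9, Cyp4f13, Cyp4f14, Cyp2j9 and Cyp1a1 were below it in every tumour with a value. These are 2 of 35 wholly above (5.71%, beside 14.3% of 17418 features) and 8 of 35 wholly below (22.9%, beside 9.66%). For Cyp1a1 this held on the averaged arrays and on the Cy5 arrays, but not on the Cy3 arrays. For Cyp2d9 it did not hold on the Cy5 arrays, where IkB-SR 3 had 5.61 and the liver 5.34. For Cyp2j9 it did not hold on the Cy3 arrays, where Mdr2-KO 5 had 2.11 and the liver 2.09. By the sign of the difference, 16 of 35 were above the liver in IkB-SR tumours (45.7%, beside 46.9%) and 11 of 35 in Mdr2-KO tumours (31.4%, beside 53.1%). No member passed the adjusted threshold: 0 of 35 for IkB-SR tumours (beside 0.149% of features) and 0 of 35 for Mdr2-KO tumours (beside 0.258%). At an unadjusted p under 0.05 there were 7 of 35 for IkB-SR tumours, beside 9.2% of features, and 5 of 35 for Mdr2-KO tumours (14.3%, beside 10.5%). Of the 7, 2 were higher (5.71%, beside 6.05%) and 5 lower (14.3%, beside 3.16%). Of the 5, 2 were higher (5.71%, beside 8.47%) and 3 lower (8.57%, beside 2.05%). Both comparisons rest on the same 1 liver sample, which the fit assumes to vary like the tumours, so they are given side by side and not as separate evidence.

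By size, 13 of 35 members differed at least 2-fold in IkB-SR tumours (37.1%, beside 5.14% of features), 5 higher (14.3%, beside 3.28%) and 8 lower (22.9%, beside 1.87%). In Mdr2-KO tumours 10 of 35 did (28.6%, beside 6.1%), 4 higher (11.4%, beside 4.92%) and 6 lower (17.1%, beside 1.18%). The median difference was -0.12 in IkB-SR tumours (all features -0.02) and -0.31 in Mdr2-KO tumours (all features 0.03). None of the members behind these shares passed the test, and the shares were not tested against those of all features. They were also not matched for level, although features far above the reference pool vary more between tumours, as given below.

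Cyp3a41 was 6.52-fold higher than the liver in IkB-SR tumours (difference 2.71, SE 0.88, adjusted p = 0.338 in limma) and 7.40-fold higher in Mdr2-KO tumours (2.89, SE 0.91, adjusted p = 0.26 in limma). The Mdr2-KO tumours lay close together (SD 0.142, n = 4). Eif2s3y was low in those 4 tumours and high in the liver sample, and with Eif2s3y as a covariate the Mdr2-KO difference was 2.42. The liver value of Cyp3a41 averages 3.30 on the Cy3 and 1.74 on the Cy5 array. Its median absolute difference between swapped arrays was 1.14 in the large dye set, the largest of the members. Within the large dye set the IkB-SR difference from the liver was 1.89. Cyp3a11, in contrast, differed by 0.21 in IkB-SR tumours and by -0.40 in Mdr2-KO tumours, with a liver value of 6.32. Cyp3a16 (0.61 and -0.12), Cyp3a25 (0.19 and -0.10) and Cyp3a13, which is also made in intestine (0.25 and 0.57), likewise differed less than 2-fold from the liver.

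Cyp2c38, a 2c enzyme that oxidises arachidonic acid, had 3.75, 4.53 and 4.97 as its lowest, median and highest IkB-SR values. It had 5.53, 5.31, 3.47 and 4.21 in Mdr2-KO tumours and 2.69 in the liver. It was 3.46-fold higher in IkB-SR tumours (1.79, SE 0.68) and 3.83-fold higher in Mdr2-KO tumours (1.94, SE 0.71). On the spots that the liver sample read, its liver values of 2.27 and 3.12 lay below all 10 tumours, and the other spot had no liver value. With the dye set as a covariate the IkB-SR difference was 1.04, and within the large dye set the Mdr2-KO difference was 1.15. The adjusted p-values in limma were 0.429 for IkB-SR and 0.337 for Mdr2-KO tumours.

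Other 2c enzymes went the other way. Cyp2c37, which CAR induces, had 0.45, 1.59 and 2.29 as its lowest, median and highest IkB-SR values and 2.29, 1.87, 0.86 and 1.55 in Mdr2-KO tumours, against 3.09 in the liver. It was 2.94-fold lower in IkB-SR tumours and 2.73-fold lower in Mdr2-KO tumours (adjusted p = 0.424 and 0.436 in limma). Cyp2c44 was 4.28-fold lower in IkB-SR tumours (-2.10, SE 0.62, adjusted p = 0.288 in limma) and 2.17-fold lower in Mdr2-KO tumours (-1.12, SE 0.64, adjusted p = 0.641 in limma), from a liver value of 6.09.

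Cyp2c50 and Cyp2c55, both CAR and PXR targets, were spread over a wide range. Cyp2c50 had 2.93, 4.71 and 6.45 as its lowest, median and highest IkB-SR values and 5.29, 5.30, 4.49 and 4.21 in Mdr2-KO tumours, against 5.68 in the liver. Cyp2c55 ran from 1.03 to 4.11 with a median of 3.34 in IkB-SR tumours and had 2.61, 3.50, 3.10 and -0.63 in Mdr2-KO tumours, against 0.48 in the liver. In Cyp2c55 9 of 10 tumours lay above the liver and Mdr2-KO 7 lay below it, with differences of 2.47 (SE 1.47) in IkB-SR and 1.67 (SE 1.52) in Mdr2-KO tumours. With the dye set as a covariate these were 1.10 and 0.64, and the Mdr2-KO difference was 0.14 with Eif2s3y as a covariate and 2.59 without Mdr2-KO 7. Cyp2c29, which CAR and PXR induce, and Cyp2c70, an enzyme that makes muricholic acid in mice, differed less than 2-fold from the liver. Cyp2c29 had 5.42, 6.64 and 6.89 as its lowest, median and highest IkB-SR values and 5.98, 5.89, 5.94 and 5.41 in Mdr2-KO tumours, against 6.28 in the liver. Cyp2c70 had 6.43, 7.61 and 7.90 in the same order, and 7.16, 6.89, 6.73 and 6.46, against 7.09. Their differences from the liver lay between -0.47 and 0.25.

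In subfamily 2d, Cyp2d13, which RefSeq lists as a transcribed pseudogene, was 3.19-fold lower in IkB-SR tumours (-1.67, SE 0.46, adjusted p = 0.265 in limma) and 2.38-fold lower in Mdr2-KO tumours (-1.25, SE 0.47, adjusted p = 0.362 in limma). It had 2.51, 2.07, 2.44, 2.34 and 2.97 in the samples labelled IkB-SR 3, 4, 6, 8 and 10 and 2.75, 2.19, 2.97 and 3.63 in Mdr2-KO tumours, against 4.14 in the liver. All 9 tumours with a value were below the liver. Cyp2d9 was below its liver value of 5.65 in all 10 tumours, with group differences of -0.80 (SE 0.88) in IkB-SR and -1.62 (SE 0.91) in Mdr2-KO tumours. Cyp2d26 lay between 4.35 and 5.64 over the tumours, on both sides of its liver value of 5.00, with differences of 0.09 in IkB-SR and -0.08 in Mdr2-KO tumours.

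In family 4, Cyp4f13 was 2.24-fold lower in IkB-SR tumours (-1.17, SE 0.37, adjusted p = 0.32 in limma) and 2.02-fold lower in Mdr2-KO tumours (-1.02, SE 0.38, adjusted p = 0.354 in limma). It had 0.68, 1.29 and 1.47 as its lowest, median and highest IkB-SR values and 1.70, 1.75, 0.73 and 1.27 in Mdr2-KO tumours, against 2.38 in the liver. Cyp4f14, a hydroxylase of leukotriene B4 in mice, had 3.20, 4.78 and 5.42 as its lowest, median and highest IkB-SR values and 5.45, 5.06, 3.86 and 4.29 in Mdr2-KO tumours, against 5.57 in the liver. Cyp4f13 and Cyp4f14 were below the liver in all 10 tumours. The Cyp4f14 value of Mdr2-KO 5 averages 5.16 on the Cy3 and 2.56 on the Cy5 array, the widest gap between swapped arrays of any member. Cyp4v3, a fatty acid omega-hydroxylase, had 4.80, 5.41 and 5.62 as its lowest, median and highest IkB-SR values and 5.84, 5.43, 5.42 and 5.20 in Mdr2-KO tumours, against 5.82 in the liver. Its tumour SD of 0.284 was the smallest among the family 4 members with a liver value. Cyp4b1 was 3.58-fold lower than the liver in IkB-SR tumours (-1.84, SE 0.62, adjusted p = 0.363 in limma) and differed by 0.04 from it in Mdr2-KO tumours. The fatty acid omega-hydroxylases as a list had 0 of 7 called against the liver in either group, with a median of -0.74 in IkB-SR and -0.35 in Mdr2-KO tumours (all features -0.02 and 0.03).

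The remaining subfamilies gave smaller or more scattered values. Cyp2a5, a coumarin hydroxylase known to rise in damaged liver, ran from 1.78 to 6.20 with a median of 4.27 in IkB-SR tumours and had 4.43, 3.67, 2.13 and 2.52 in Mdr2-KO tumours, against 2.73 in the liver. Its difference from the liver in IkB-SR tumours was 1.32 (SE 1.28) in the fit without a dye term. It turned to -0.0058 with the dye set as a covariate and to -0.14 within the samples with a large dye difference. Cyp2f2, which bioactivates naphthalene in lung and liver, had 3.84, 5.05 and 5.52 as its lowest, median and highest IkB-SR values and 5.67, 5.61, 3.53 and 4.19 in Mdr2-KO tumours, against 5.57. Cyp2g1, known from olfactory tissue, ran from 1.10 to 4.27 with a median of 2.72 in IkB-SR tumours, and had 4.86, 3.27, 3.13 and 3.11 in Mdr2-KO tumours, against 2.79. All 4 Mdr2-KO tumours were above the liver for Cyp2g1, while the IkB-SR tumours lay on both sides of it.

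Cyp2j5, an epoxygenase of liver and kidney, had 1.59, 2.34 and 2.62 as its lowest, median and highest IkB-SR values and 2.98, 2.58, 1.77 and 1.63 in Mdr2-KO tumours, against 2.83 in the liver. Cyp1a1, the classical target of the aryl hydrocarbon receptor, was nearly flat, from 0.11 to 0.27 with a median of 0.20 in IkB-SR tumours and at 0.28, 0.30, 0.19 and 0.08 in Mdr2-KO tumours, against 0.31. All 10 tumours were below the liver for Cyp1a1, by small amounts (differences -0.12 in IkB-SR and -0.10 in Mdr2-KO tumours). That liver value averages -0.07 on the Cy3 and 0.70 on the Cy5 array. On the Cy3 arrays IkB-SR 3, 4, 9 and 10 and Mdr2-KO 1 and 2 lay above the liver. Cyp1b1 had -4.35, -3.63 and -3.24 as its lowest, median and highest IkB-SR values and -3.71, -3.36, -3.92 and -3.04 in Mdr2-KO tumours, against -3.91 in the liver. Cyp2s1, an enzyme of epithelia, had -3.04, -2.56 and -1.85 in the same order, and -3.20, -2.60, -2.90 and -2.72, against -2.32. The 95% intervals of all 3 comparisons included 0 for Cyp2j5, Cyp1a1, Cyp1b1 and Cyp2s1.

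The P450 genes varied between tumours more than most features. Their SD over the tumours had a median of 0.570 (39 members with at least 7 tumours) and was above 1 for 7 (17.9%), beside a median of 0.247 and 1.31% of 18507 features. Of the 39, 36 lay above the median of all features. The 7 were Cyp4a12 (1.49), Cyp2c55 (1.48), Cyp2a5 (1.32), Cyp4b1 (1.12), Cyp2g1 (1.11), Cyp2b9 (1.06) and Cyp2c50 (1.02). Most members are far above the reference pool, and such features vary more: among the 1039 features with a tumour mean above 2 the median SD was 0.501 and 7.7% were above 1. The 27 members above that level had a median SD of 0.781, and 25.9% were above 1. These are descriptions with no test.

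**Figure D4:**
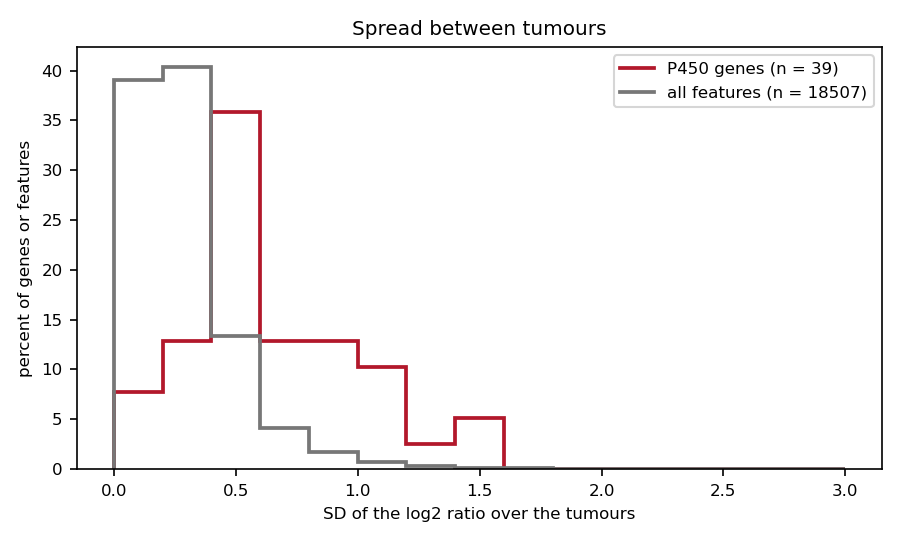
Distribution of the SD of the log2 ratio over the tumours (horizontal axis, bins of 0.2) for 39 P450 genes (red) and 18507 features (grey), in percent of each. The P450 genes peak at 0.4 to 0.6 and reach 1.49, while most features lie below 0.4.

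Tumours of 1 group differed in how their P450 genes stood to the liver. Among the 29 members with a value in every sample, 8 were at least 2-fold below the liver and 2 at least 2-fold above it in IkB-SR 6, and 3 and 4 in IkB-SR 10. In Mdr2-KO 7 there were 10 below and 2 above, in Mdr2-KO 5 there were 9 and 3, and in Mdr2-KO 1 there were 0 and 6. Over all features measured in every sample, 1.37% to 3.53% were at least 2-fold below the liver and 3.21% to 6.74% above it in single tumours. IkB-SR 6 had the lowest tumour value for 10 of the 29 members, and Mdr2-KO 1 the highest for 10. The median member lay between -0.73 (Mdr2-KO 7) and 0.20 (IkB-SR 10) relative to the liver. The 4 tumours with the lowest medians, Mdr2-KO 7 (-0.73), IkB-SR 6 (-0.53), the sample labelled IkB-SR 8 (-0.39) and Mdr2-KO 5 (-0.34), are the 4 with a large dye difference, and the part of the array in that order was not tested. Within subfamily 3a, Cyp3a41 was above the liver in 10 of 10 tumours, Cyp3a13 in 8 and Cyp3a16 in 7 of 9 with a value. Cyp3a25 was below the liver in 6 of 10 tumours and Cyp3a11 in 7. Within subfamily 4f, Cyp4f13 and Cyp4f14 were below the liver in 10 of 10 tumours and Cyp4f15 in 9, while Cyp4f16 was above it in 9.

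Among the genes around the P450 system, 0 of 12 tested regulators were called between the tumour groups, with a median of -0.24. The bile acid receptor Nr1h4 (-0.43), the hepatocyte factor Cebpa (-0.68) and the partner receptor Rxra (-0.25) had the smallest p. Of the electron donors and haem enzymes 0 of 10 were called. Por itself had 0.29 to 1.88 in IkB-SR tumours and 0.96 to 1.62 in Mdr2-KO tumours (difference 0.06, SE 0.28). Hmox1, which degrades haem and is high in macrophages, was -2.26 to -1.65 in IkB-SR tumours and -0.98 to -0.28 in Mdr2-KO tumours. It differed by -1.24 (SE 0.17, adjusted p = 0.0531 in limma) between them and was called higher in Mdr2-KO tumours than in the liver (1.94, SE 0.29, adjusted p = 0.0372 in limma). The macrophage markers averaged 2.30 to 3.19 in Mdr2-KO tumours, 1.71 to 2.21 in IkB-SR tumours and 1.47 in the liver. Their part in the Hmox1 differences was not tested. Alas1, the first enzyme of haem synthesis, was 2.57 to 3.63 in IkB-SR tumours, 3.13 to 4.08 in Mdr2-KO tumours and 4.30 in the liver. Its differences were -0.62 between the tumour groups (adjusted p = 0.294 in limma) and -1.21 from the liver in IkB-SR tumours (adjusted p = 0.309 in limma).

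Of the conjugation and other drug metabolism genes 0 of 19 were called between the tumour groups. The glucuronosyltransferase Ugt2b5 (0.82), the flavin monooxygenase Fmo5 (0.57) and the epoxide hydrolase Ephx1 (0.34) had the smallest p, all on the higher side. Of the P450 genes above family 4, 0 of 13 were called, led by the vitamin D hydroxylase Cyp27b1 (0.41), the sterol hydroxylase Cyp27a1 (0.33) and the thromboxane synthase Tbxas1 (-0.61). Against the liver the same lists had 0 called in either tumour group, but for Hmox1. Of 9 listed male-biased liver genes outside families 1 to 4, 4 were tested, and 4 of 4 were below the liver in both groups. Of 9 female-biased ones 3 were tested, and 3 of 3 were above it in both (medians 1.19 in IkB-SR and 0.86 in Mdr2-KO tumours). Over all features 46.9% were above the liver in IkB-SR and 53.1% in Mdr2-KO tumours. The female-biased P450 members had 3 above and 1 below the liver in IkB-SR tumours, and 2 and 2 in Mdr2-KO tumours. Eif2s3y was low in 7 of 10 tumours and high in the liver sample, and its part in these values was not tested. Among the male-biased genes the transporter Slco1a1 differed by -3.30 in IkB-SR and -3.96 in Mdr2-KO tumours, and Cyp7b1, an oxysterol hydroxylase, by -2.84 and -2.63. None passed (adjusted p of at least 0.149 in limma).

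The P450 genes of these families that the rule left out gave a value in every group. The PPAR-alpha targets Cyp4a10 and Cyp4a14 differed by -1.57 and -1.27 between IkB-SR and Mdr2-KO tumours (adjusted p = 0.25 and 0.309 in limma), the ethanol-oxidising Cyp2e1 by 0.54 and Cyp1a2 by 0.46. Cyp4a12, in the same subfamily as Cyp4a10, did not follow it: Cyp4a10 was 5.80 and 5.45 in Mdr2-KO 5 and 7, its highest tumours, where Cyp4a12 was lowest.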

How the data were processed

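The deposited table holds 1 value for each of 37632 spots on each of 22 arrays, with 19576 to 25000 values per array. Per the labels, amplified RNA was hybridised on two-colour arrays with swapped dyes. The deposited values were taken to be log2 ratios, sample over reference RNA, that the authors had normalized. The labels state neither log base nor direction; the range of the values and the high level of hepatocyte genes were used instead. How images were read and spots filtered, and the genome build, is not stated in those sources. Intensities were not used, so precision was judged from the dye swap and the number of samples. Swapped arrays correlated at 0.861 to 0.988 over spots and were averaged to give 11 RNA samples. The platform annotation names 1 symbol for 20879 spots. RefSeq (GRCm38.p6) lists 15688 of these as current, 5005 were updated and 186 kept, and spots sharing a symbol were averaged.

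Testing required values from both dyes in no fewer than 3 tumours of the Mdr2-KO group and 4 of the IkB-SR group. Group means over all samples were fitted in a single linear model (limma 3.58.1, R 4.3.3), moderated by eBayes, with Benjamini-Hochberg adjustment over all features at a threshold of 0.05. P-values measure the spread between tumours, and the lone liver was assumed to vary like them. The procedure was tested on simulated data. Python 3.11.15 (numpy 2.4.6, pandas 2.3.3, scipy 1.17.1, matplotlib 3.10.9) gave the tables, the exact permutations, the promoter searches and the plots.

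The members and gene lists were chosen with earlier results of these data known. Members with the 6 smallest p-values in a comparison, the sex-biased, CAR and PXR induced and AHR induced members, the 6 of largest tumour SD and the highest of each subfamily in the liver are given by sample. Other lists are given by counts and their 3 smallest p-values. Por and Kdm5d were added after their values were seen. Alternatives covered normalization, missing values, spots, dyes, dye sets, Eif2s3y, array weights and left-out tumours.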

Additional observations from a re-analysis of the deposited data

Results flagged for a closer look

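Of 57 sets of a member's values within a tumour group, 4 held a sample far from the others by Dixon's test, which chance gives for about 1 set in 20. Cyp2b9 was 1.82 in the sample labelled IkB-SR 8, where the other IkB-SR tumours with a value lay at 4.32 to 5.22. Mdr2-KO 7 was the lowest of its group in both Cyp2c29 (5.41, the others 5.89 to 5.98) and Cyp3a11 (5.46, the others 6.04 to 6.11). Cyp2g1 was 4.86 in Mdr2-KO 1, where the other Mdr2-KO tumours lay at 3.11 to 3.27.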

How the results depend on the processing

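Under 23 alternatives, 660 values of single members were recomputed, of which 652 kept direction and side of the threshold. No member passed in the main fit, so keeping its side meant staying uncalled. The members followed were those at least 2-fold different or among the smallest p. The dye sets were split at an SD of 0.5, a limit set with the values known. For Cyp4a12 the difference between IkB-SR and Mdr2-KO tumours was -0.73 in the small set and 3.34 in the large set (adjusted p = 0.0409 in limma). The latter compares only IkB-SR 6 and the sample labelled IkB-SR 8 with Mdr2-KO 5 and 7. Against the 1 liver, Mdr2-KO 5 and 7 differed by -3.97 in the large set. Between the tumour groups the large set thus gave 1 member called. In both comparisons 0 were called under all other alternatives. Cyp2b9 turned to -0.37 between Mdr2-KO tumours and liver with Eif2s3y as a covariate, and to -1.07 between IkB-SR tumours and liver in the large set. Between IkB-SR tumours and liver, Cyp2b13 turned to 0.26 on Cy5 arrays and Cyp2a5 to -0.0058 with the dye set as a covariate and -0.14 in the large set. The Cyp2b13 liver value was 4.53 on the Cy3 and 2.17 on the Cy5 array, and 4.09 as the average of the first spot. Single-dye values of Cyp2b13 also average in its second spot, which had values on only 9 arrays. The cause of these turns was not tested. Moves of over 1.5 times without a change of sign were also seen with Eif2s3y as a covariate, for Cyp2c37 in Mdr2-KO tumours against liver (-2.29) and for Cyp2c50 (-1.89), Cyp4f14 (-1.82) and Cyp2b9 (0.25) in IkB-SR tumours against liver. In Mdr2-KO tumours against liver, Cyp2d9 was -2.59 in the large set and Cyp2c44 -0.70 on Cy5 arrays. Cyp4a12 was -1.31 there without Mdr2-KO 5, and between the tumour groups 2.04 without Mdr2-KO 1 and 0.84 with array weights. The median member difference between the tumour groups was 0.37 with Eif2s3y as a covariate and -0.09 to 0.11 with 1 tumour left out. Of 1732 other member values, all under 2-fold, 144 changed sign.

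Counts of features over the whole table moved more. Between the tumour groups the 5 called became 17 by quantile normalization, 14 by centring, 20 with values in all samples, 1 by single spots, 2 on Cy3 and 2 on Cy5 arrays, 9 with the dye set as a covariate and 17 within the small set. They became 3 with Eif2s3y, 58 with array weights, 0 when spots of a gene were first brought to a common level (chosen after seeing the data) and 0 to 34 with 1 tumour left out (0 without IkB-SR 3, 9 or 10 or Mdr2-KO 1, 5 or 7, 1 without IkB-SR 6, 13 without IkB-SR 4, 15 without the sample labelled IkB-SR 8 and 34 without Mdr2-KO 2). For Mdr2-KO tumours against liver the 45 became 29 by quantile normalization, 12 on Cy3 and 20 on Cy5 arrays, 5 with Eif2s3y, 113 with array weights and 14 to 48 with 1 tumour left out (20 without IkB-SR 10, 16, 23 and 14 without Mdr2-KO 1, 2 and 5). For IkB-SR tumours against liver the 26 became 40 by single spots, 13 on Cy3 arrays, 42 with the dye set and 18 to 33 with 1 tumour left out. Centring moved the median of all features for that comparison to -0.10.

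No paired analysis was possible because the tumour groups share no replicate number. The single liver sample could not be left out of its own comparisons.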

Other observations

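Of the members that were not tested, Cyp2d22 had 1.90, 3.77 and 2.65 in the samples labelled IkB-SR 8, 9 and 10. It had 2.88, 3.03, 1.57 and 2.40 in Mdr2-KO tumours 1, 2, 5 and 7 and 1.84 in the wild-type liver. Cyp2r1, a hydroxylase of vitamin D, had 1.43 and 1.13 in IkB-SR tumours 6 and 10, against 1.04, 1.85 and 1.08 in Mdr2-KO tumours 2, 5 and 7. Cyp2j13 had 0.45, 0.68 and 0.72 in the samples labelled IkB-SR 6, 8 and 10, against 0.58 and 0.36 in Mdr2-KO tumours 2 and 5. Cyp2c66 had a value on both arrays in IkB-SR 3 alone (1.68).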
